A study of Rattus norvegicus with 8 samples.

Results

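Sensory neurons of the dorsal root ganglion (DRG) change the peptides they make when their axon is cut, and 7 neuropeptide genes known for this change were followed here in rats treated with a histone deacetylase inhibitor (HDACI) or with vehicle. These were Npy, Gal, Vip, Adcyap1, Nts, Cck and Crh, taken from a list of names, and each gene was read from its single probe set, 7 genes of the 14497 on the array that carried 1 symbol. All 8 rats were adult male Wistar rats with the L5 spinal nerve ligated and transected, and their ipsilateral L5 DRG was taken on day 14. In the HDACI group (n = 4) MS-275, a class I selective inhibitor, was given intrathecally at 30 nmol per day from an osmotic pump, and in the vehicle group (n = 4) the pump held the dimethyl sulfoxide and saline solvent. In the paper's main nerve injury experiments, delivery began before the injury and continued after it. The samples of a group were biological replicates, each on its own Affymetrix array. No uninjured ganglion was analysed here, so the values compare drug with vehicle after injury and say nothing of the induction itself.

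Neuropeptides are cut from larger precursors, packed into dense-core granules and released to act on G protein-coupled receptors. In intact DRG most of these genes are scarce, and after axotomy galanin, neuropeptide Y, vasoactive intestinal peptide and PACAP (the product of Adcyap1) are classically made by neurons that did not make them before. HDACs remove acetyl groups from histones at promoters and elsewhere, and an inhibitor given intrathecally asks whether peptide transcripts in the injured ganglion respond. With this delivery the paper saw no clear acetylation change in L5 DRG, either globally or at the promoters it tested. Its own reading of arrays from injured L5 DRG also gave no gene after correction for multiple comparisons. It proposes that detectable drug may not have reached these ganglia.

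The stretch before the transcription start is shown for 4 of these genes because HDACs act on chromatin at such sites, although no acetylation was measured on these arrays. The RefSeq promoter table (GRCr8) held 5 of the 7 genes, which were Npy, Gal, Vip, Nts and Adcyap1. The 250 bases before the start are printed for Npy, Gal and Nts. For Vip, where the start in the table was not that of the gene record, 30 bases are printed. Capitals mark TATAAA (the TATA box), TGACG or its complement CGTCA (the core of the cAMP response element), and TGAGTCA (an AP-1 site, the element bound by Jun and Fos proteins).
Npy, chr4:80211861-80212110, plus strand: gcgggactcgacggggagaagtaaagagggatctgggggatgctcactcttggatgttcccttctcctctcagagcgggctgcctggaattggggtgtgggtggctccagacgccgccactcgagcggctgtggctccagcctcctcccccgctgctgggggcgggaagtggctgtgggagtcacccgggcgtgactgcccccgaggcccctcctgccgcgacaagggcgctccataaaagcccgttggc
Gal, chr1:210084573-210084822, minus strand: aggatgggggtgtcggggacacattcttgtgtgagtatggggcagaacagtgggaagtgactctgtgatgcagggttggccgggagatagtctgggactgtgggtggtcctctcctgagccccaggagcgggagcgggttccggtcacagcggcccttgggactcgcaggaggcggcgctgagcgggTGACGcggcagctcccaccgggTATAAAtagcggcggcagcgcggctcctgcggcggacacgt
Nts, chr7:39460889-39461138, minus strand: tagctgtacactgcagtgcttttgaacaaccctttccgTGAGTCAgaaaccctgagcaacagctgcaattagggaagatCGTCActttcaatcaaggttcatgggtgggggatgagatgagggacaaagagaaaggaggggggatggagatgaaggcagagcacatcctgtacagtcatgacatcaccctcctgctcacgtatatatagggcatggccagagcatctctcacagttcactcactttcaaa
Vip, chr1:44470373-44470402, plus strand: atcaccactgTGACGtctttcgaggagcct
Both strands were searched for the core and the AP-1 site, and the printed strand for TATAAA. Positions are counted back from the start in the promoter table, which for Vip and Adcyap1 was not that of the gene record. Gal held TGACG at -63 and TATAAA at -41. The Vip window held TGACG at -97 and TATAAA at -175, -165 and -48, Adcyap1 held TATAAA at -248, and Nts held CGTCA at -171 and TGAGTCA at -212. The full palindrome TGACGTCA, which contains the core, was in none of the 5 windows and in 1.59% of all 33469 windows of 250 bases. Of all windows, 18.2% held the core, 4.05% the AP-1 site and 8.06% TATAAA. Npy held none of these motifs in this window.

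The neuropeptides differed little between HDACI and vehicle, and none passed the test. In the limma test over all 28826 probe sets 0% were called at an adjusted p of 0.05, and of the 7 neuropeptides 0 were called. Without adjustment, 2 of the 7 had p under 0.05, beside 3.55% of all probe sets (1022 in number). These were Npy, lower in HDACI as were 1.93% of all probe sets at this p, and Cck, higher in HDACI as were 1.61%. In 6 of the 7 the HDACI mean lay below the vehicle mean (4 with the sensory neuron mean as a covariate), beside 46.7% of all probe sets, and the median difference was -0.08 (log2) beside 0.01 for all probe sets. For all 7 the 2 groups overlapped, and the groups did not overlap for 2.1% of all probe sets. The adjusted p was 1.0 for each of the 7.

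**Figure D1:**
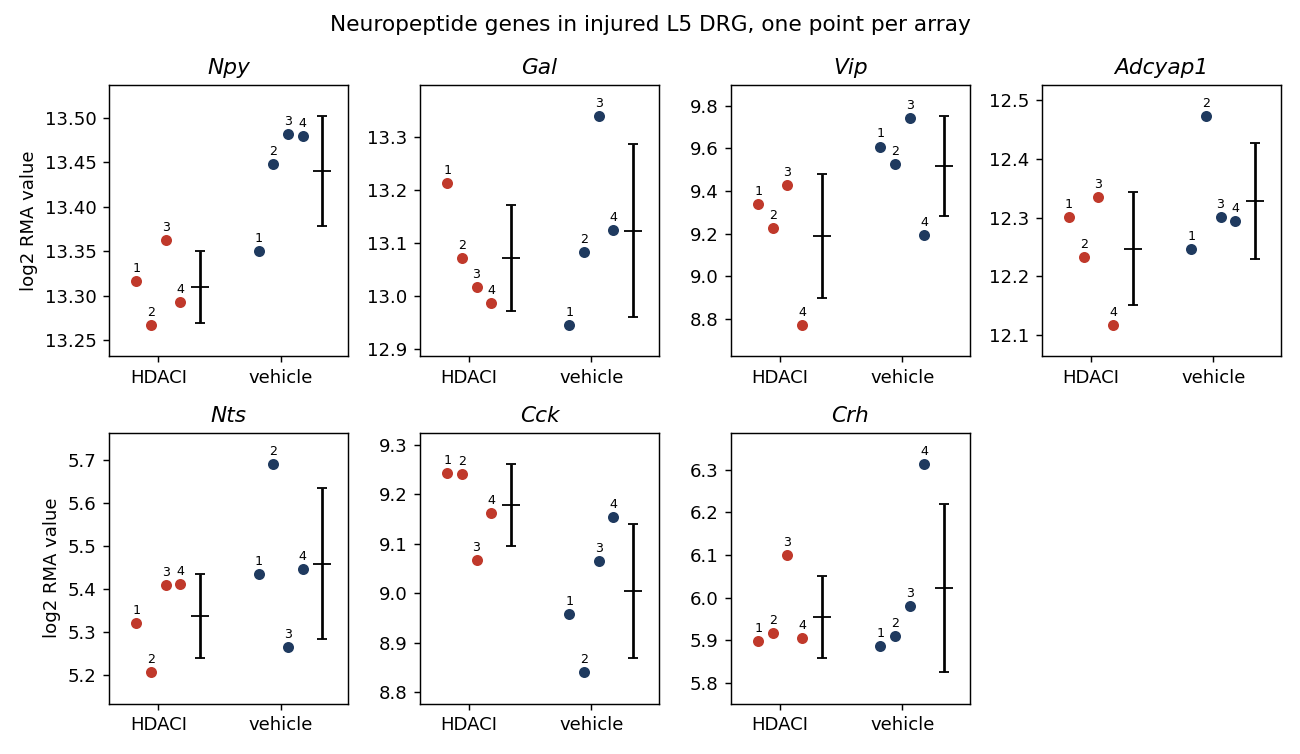
Log2 RMA values (vertical axes, a separate scale for each gene) of the 7 neuropeptide genes, with 1 point per array numbered by replicate, red for HDACI and dark blue for vehicle arrays, and bars for the mean ± SD of n = 4. Vehicle replicates 2, 3 and 4 lie above all HDACI arrays for Npy, and HDACI replicate 4 lies lowest for Vip and Adcyap1.

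Neuropeptide Y, a peptide that restrains or promotes transmitter release depending on the receptor it meets, gave bright and steady values. Npy measured 13.32, 13.27, 13.36 and 13.29 in HDACI replicates 1 to 4 and 13.35, 13.45, 13.48 and 13.48 in vehicle replicates 1 to 4 (log2 RMA value). Vehicle replicates 2, 3 and 4 lay above every HDACI array, while vehicle replicate 1 lay below HDACI replicate 3. The means were 13.31 ± 0.04 and 13.44 ± 0.06 (SD, n = 4 each). The difference was -0.13 ± 0.05 (log2, SE, limma, adjusted p = 1.0), which is a level in HDACI of 0.914 times that in vehicle with a 95% confidence interval of 0.847 to 0.985. The exact permutation p was 0.0571, two-sided, where 70 relabellings allow no less than 0.0286. The spread of Npy within groups was 0.05 (log2, SD), below that of all but 11.7% of probe sets. Its probe set was brighter than 99.7% of all probe sets, and those of Gal and Adcyap1 were brighter than 99.5% and 98.1%. Arrays can compress differences at such levels, and the part of this in these results was not tested.

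Galanin is a peptide with both inhibitory and trophic actions on sensory neurons. Gal measured 13.21, 13.07, 13.02 and 12.99 in the HDACI arrays and 12.95, 13.08, 13.34 and 13.13 in the vehicle arrays. The vehicle group held both the lowest and the highest value, in replicates 1 and 3. The difference was -0.05 ± 0.09 (log2, SE, limma), and its interval ran from 0.842 to 1.11 times the vehicle level. The sign turned without vehicle replicate 3 (0.02).

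Vasoactive intestinal peptide and PACAP are related peptides that raise cyclic AMP in their target cells. Vip measured 9.34, 9.22, 9.43 and 8.77 in the HDACI arrays and 9.61, 9.53, 9.74 and 9.19 in the vehicle arrays. Vehicle replicates 1, 2 and 3 lay above all HDACI arrays, and replicate 4 of each group was the lowest in its group. Vip had the largest difference of the 7, at -0.33 ± 0.16 (log2, SE, limma, adjusted p = 1.0), or 0.798 times the vehicle level with a 95% confidence interval of 0.623 to 1.02. The exact permutation p was 0.143, two-sided. It also varied most within groups (SD 0.26, above 94.4% of probe sets), and without HDACI replicate 4 the difference was -0.19.

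Adcyap1 measured 12.30, 12.23, 12.34 and 12.12 in the HDACI arrays and 12.25, 12.47, 12.30 and 12.29 in the vehicle arrays. A single array of each group stood away from a shared middle, HDACI replicate 4 below it and vehicle replicate 2 above it. The difference was -0.08 ± 0.07 (log2, SE, limma), with an interval of 0.850 to 1.05 times the vehicle level, and it was -0.03 without vehicle replicate 2 and -0.04 without HDACI replicate 4.

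Cholecystokinin, a peptide that opposes opioid analgesia, was the single one of the 7 with a higher mean in HDACI. Cck measured 9.24, 9.24, 9.07 and 9.16 in the HDACI arrays and 8.96, 8.84, 9.07 and 9.15 in the vehicle arrays. All HDACI arrays lay above vehicle replicates 1 and 2, vehicle replicate 3 was level with HDACI replicate 3, the lowest of its group, and vehicle replicate 4 lay among the HDACI arrays. The difference was 0.17 ± 0.08 (log2, SE, limma, adjusted p = 1.0), or 1.13 times the vehicle level with an interval of 1.002 to 1.27. The exact permutation p was 0.0571, two-sided. Vehicle replicates 1 and 2, the low arrays for Cck, were the arrays highest in skeletal muscle genes (2.69 and 1.72 above the mean of all arrays on the log2 scale, against -1.32 to -0.86 in HDACI). With these 2 arrays left out the Cck difference was 0.07, and with the mean of the muscle genes as a covariate it was 0.09 ± 0.10 (SE). Leaving out the lowest vehicle arrays lowers this difference whatever the cause, and the part of muscle tissue in it was not tested. Under the same covariate Gal was -0.24 ± 0.09, Npy -0.19 ± 0.07 and Crh -0.13 ± 0.14 (log2, SE, limma). Adcyap1 was -0.06 ± 0.10, Nts 0.00 ± 0.12 and Vip -0.34 ± 0.23.

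Neurotensin and corticotropin-releasing hormone, whose probe sets were dim, differed by less than the spread between arrays. Their mean values were below those of all but 11.2% and 16.8% of probe sets, and they were the 2 of the 7 that did not pass a filter at the 30th percentile. RMA compresses differences of such probe sets. Nts measured 5.32, 5.21, 5.41 and 5.41 in the HDACI arrays and 5.43, 5.69, 5.26 and 5.45 in the vehicle arrays, a difference of -0.12 ± 0.09 (log2, SE, limma) with vehicle replicate 2 highest and HDACI replicate 2 lowest. Without vehicle replicate 2 this difference was -0.04. Crh measured 5.90, 5.92, 6.10 and 5.90 in the HDACI arrays and 5.89, 5.91, 5.98 and 6.31 in the vehicle arrays. Its difference of -0.07 ± 0.10 (log2, SE, limma) rested on vehicle replicate 4 and was 0.03 without it.

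The 7 neuropeptides did not share 1 pattern across arrays. Of their 21 pairs, 15 had a positive Pearson correlation over the 8 arrays, and the correlations ran from -0.78 (Nts and Cck) to 0.64 (Vip and Adcyap1) with a median of 0.15, given as a description. The lowest array was HDACI replicate 2 for Npy and Nts, HDACI replicate 4 for Vip and Adcyap1, vehicle replicate 1 for Gal and Crh, and vehicle replicate 2 for Cck. The highest was vehicle replicate 3 for Npy, Gal and Vip, vehicle replicate 2 for Adcyap1 and Nts, vehicle replicate 4 for Crh, and HDACI replicate 1 for Cck.

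**Figure D2:**
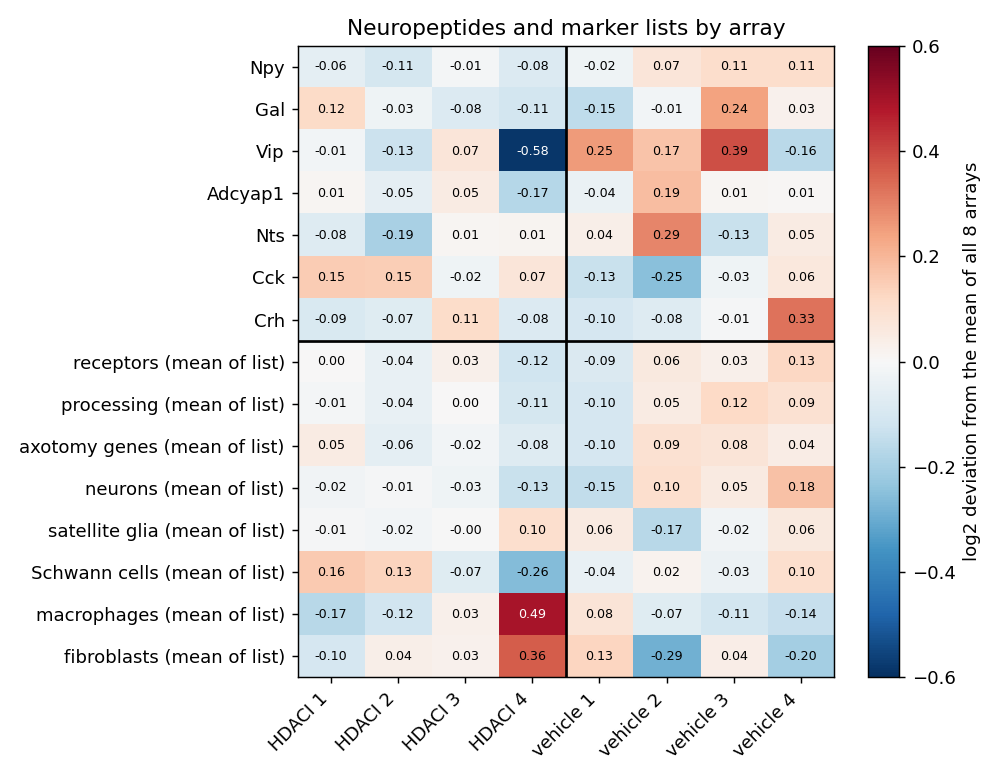
Each cell gives the log2 deviation from the mean of all 8 arrays, for the 7 neuropeptides above the line and for the mean of each gene list below it, with HDACI arrays left and vehicle arrays right of the vertical line. HDACI replicate 4 is low in Vip (-0.58) and high in macrophage markers (0.49), and vehicle replicate 4 is highest in neuron markers (0.18) and in Crh (0.33).

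Neuronal signal moved with some of these values. The mean of 16 measured sensory neuron markers, relative to all arrays, lay between -0.13 and -0.01 in HDACI and between -0.15 and 0.18 in vehicle (log2), and 15 of the 16 had a lower mean in HDACI, with a median of -0.06. Scn10a, 1 of the 16, measured 10.06 in vehicle replicate 4 against 8.24 to 8.74 in the other arrays, and adds to the high mean of that array. The mean level over the list was 11.03 to 11.36 per array, and RMA values have no zero at which to call a marker absent. In whole ganglia fewer neurons and less RNA per neuron cannot be told apart. With the neuron mean as a covariate, Npy differed by -0.10, Adcyap1 by -0.04, Gal by 0.01 and Crh by 0.02, while Vip differed by -0.34 and Cck by 0.21 (log2). HDACI replicate 4, lowest in Vip and Adcyap1, was highest in macrophage (0.49) and fibroblast markers (0.36). In the other HDACI arrays these means lay between -0.17 and 0.03 and between -0.10 and 0.04. All 9 macrophage and all 7 fibroblast genes were higher on average in HDACI. Without HDACI replicate 4 the median difference was 0.01 against 0.09 for macrophages and 0.08 against 0.19 for fibroblasts. The largest shift of a marker list was that of skeletal muscle, with all 14 measured genes lower in HDACI and a median of -1.90 (log2). At an unadjusted p under 0.05 were 14 of 14, beside 1.93% of all probe sets lower at this p, and 0 passed after adjustment by limma. The mean of this list relative to all arrays lay between -1.32 and -0.86 in HDACI and between -1.17 and 2.69 in vehicle. Vehicle replicate 3, at -1.17, lay within the HDACI range. The part of these in the result was not tested.

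The measured receptors likewise gave no call after adjustment. Of 19 receptor and binding protein genes 15 were measured (not Npy6r, Cckar, Crhr1 and Crhr2, so that Crh was followed by its binding protein alone), 9 lower and 6 higher in HDACI, with a median of -0.03, and 1 of the 15 had an unadjusted p under 0.05 beside 3.55% of all probe sets. This was Npy2r, the presynaptic NPY receptor (-0.32 ± 0.09, log2, SE, limma, adjusted p = 1.0). It measured 9.43, 9.22, 9.27 and 9.11 in the HDACI arrays and 9.41, 9.74, 9.56 and 9.60 in the vehicle arrays. As for Npy itself, vehicle replicates 2, 3 and 4 lay above every HDACI array and vehicle replicate 1 did not. Next by p were Cckbr, the cholecystokinin receptor that appears in injured sensory neurons (-0.28 ± 0.13), and Npy1r, the postsynaptic NPY receptor (-0.31 ± 0.17). The receptors of PACAP (Adcyap1r1, 0.03 ± 0.06) and of vasoactive intestinal peptide (Vipr1, 0.06 ± 0.06, and Vipr2, 0.17 ± 0.16) and the galanin receptors Galr1 (-0.08 ± 0.11), Galr2 (-0.07 ± 0.07) and Galr3 (0.06 ± 0.05) had differences near their standard errors.

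**Figure D3:**
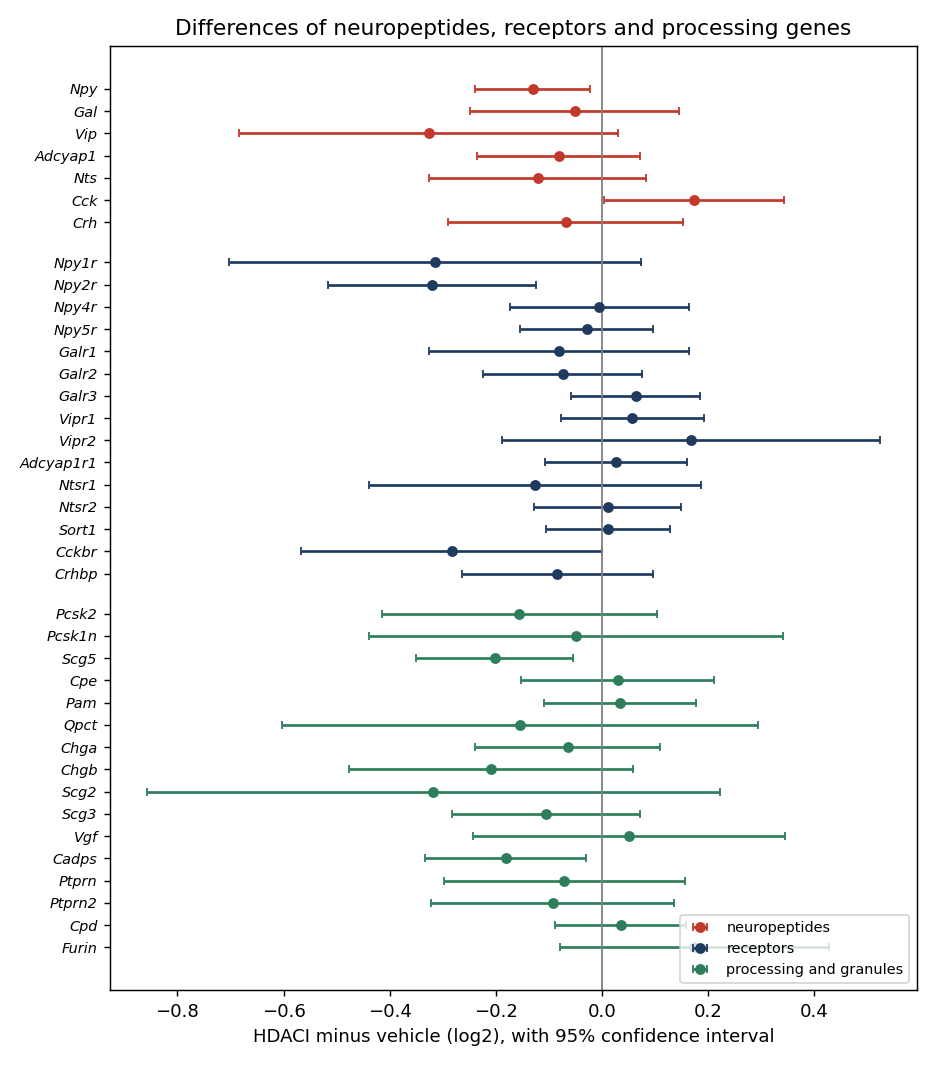
Differences between HDACI and vehicle (horizontal axis, log2) with 95% confidence intervals from limma for the 7 neuropeptides in red, 15 receptor and binding protein genes in dark blue and 16 processing and granule genes in green. The intervals of Npy, Npy2r, Scg5 and Cadps lie below 0 and that of Cck above 0, all unadjusted.

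Genes that cut, amidate and store peptides gave no call after adjustment either. Of 18 such genes 16 were measured, 11 lower and 5 higher in HDACI, with a median of -0.08 that was -0.01 with the sensory neuron mean as a covariate. In 2 of the 16 the unadjusted p was under 0.05, both lower, beside 1.93% of all probe sets, and the same 2 had groups that did not overlap, beside 2.1%. Scg5, which makes the chaperone 7B2 of the prohormone convertase PC2, measured 10.15, 10.06, 10.14 and 9.90 in the HDACI arrays and 10.24, 10.32, 10.30 and 10.20 in the vehicle arrays. All 4 vehicle arrays lay above all 4 HDACI arrays, and the difference was -0.20 ± 0.07 (log2, SE, limma, adjusted p = 1.0). Cadps, needed for priming of dense-core granules, measured 10.29, 10.22, 10.30 and 10.17 in the HDACI arrays and 10.30, 10.53, 10.34 and 10.54 in the vehicle arrays. Here the groups again did not overlap, though HDACI replicate 3 and vehicle replicate 1 both rounded to 10.30, and the difference was -0.18 ± 0.07. Chgb, a granule protein, differed by -0.21 ± 0.12, while the amidating enzyme Pam (0.03 ± 0.06) and carboxypeptidase E (Cpe, 0.03 ± 0.08) differed by less than their standard errors and the convertase Furin by 0.17 ± 0.11.

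**Figure D4:**
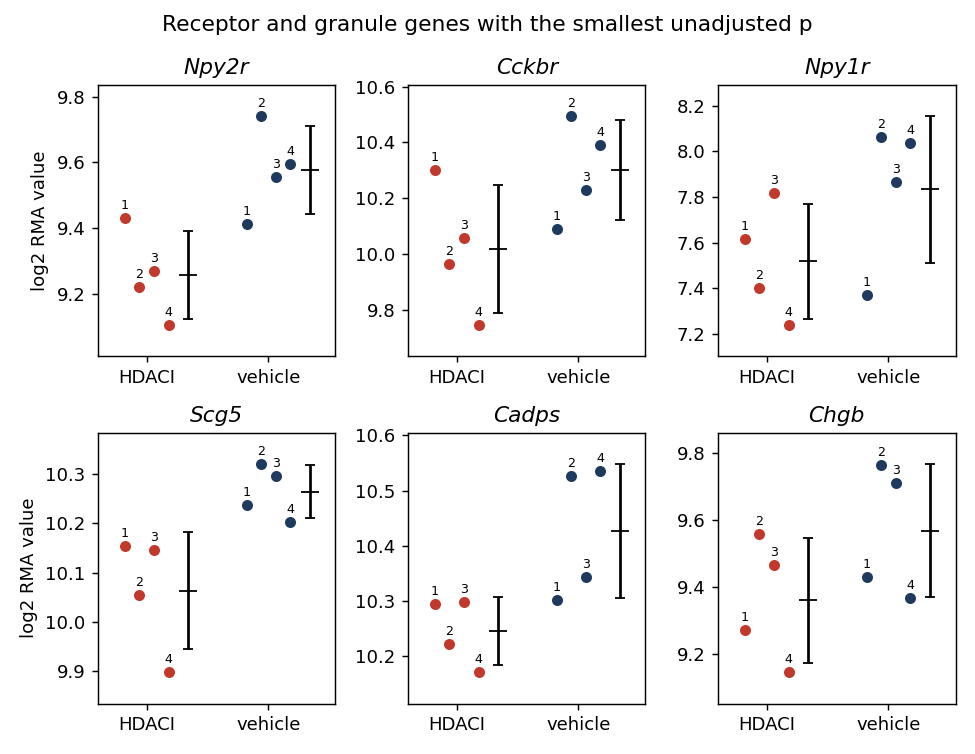
Log2 RMA values of the 3 receptor genes (Npy2r, Cckbr, Npy1r) and the 3 processing genes (Scg5, Cadps, Chgb) with the smallest unadjusted p in their lists, 1 numbered point per array, red for HDACI and dark blue for vehicle arrays, bars for mean ± SD of n = 4. The groups overlap for all but Scg5 and Cadps, and vehicle replicate 1 is the lowest vehicle array for Npy2r, Cckbr, Npy1r and Cadps.

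Other peptide precursors showed no common shift. Of 24 measured genes 15 were higher and 9 lower in HDACI, the median was 0.01, and 0 had an unadjusted p under 0.05. By p these were led by Calcb, which makes beta-CGRP (-0.31 ± 0.15), somatostatin (Sst, 0.41 ± 0.26) and adrenomedullin (Adm, 0.17 ± 0.13). Among 21 measured axotomy-induced genes other than peptides, 16 were lower and 5 higher with a median of -0.05, and 0 had an unadjusted p under 0.05. Cckbr, which also counts among the receptors, the neurotrophin Bdnf (-0.12 ± 0.06) and the calcium channel subunit Cacna2d1 (-0.12 ± 0.07) led that list. On these lists, too, 0 genes passed after adjustment by limma.

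Vehicle replicate 4 was the highest array for Crh. The gene most like Crh over the 8 arrays was Tac1, which makes substance P (Pearson r = 0.98, the highest of 9062 genes compared). Tac1 measured 9.35 in vehicle replicate 4 against 8.23 to 8.67 in the other arrays. Calca, which makes CGRP, measured 11.92 there against 9.91 to 10.35, and the granule protein gene Scg2 8.92 against 7.68 to 7.89. Calca and Scg2 were chosen after their values were seen, and not every peptide was highest in that array, since Sst measured 8.98 in HDACI replicate 2 against 8.50 in vehicle replicate 4. Nptx1 (0.95) and Wfikkn1 (0.95) came next in likeness to Crh.

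**Figure D5:**
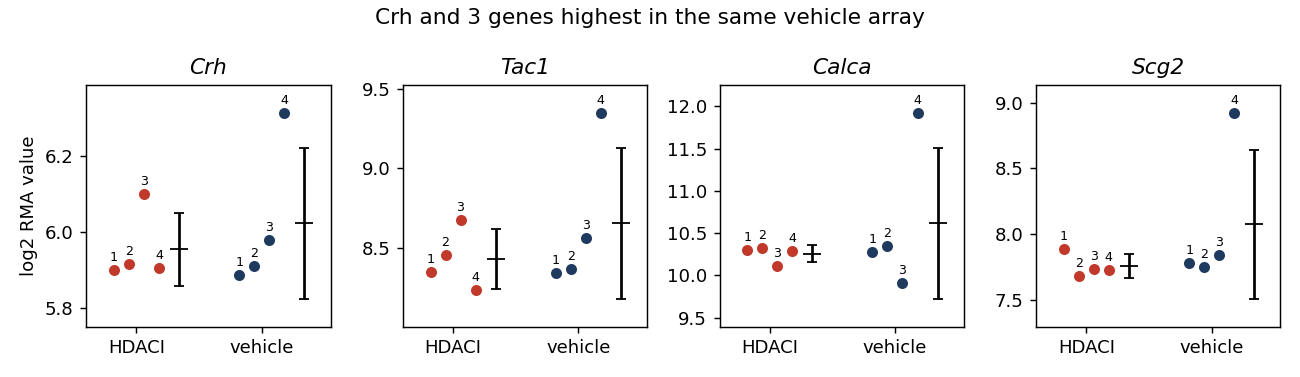
Log2 RMA values of Crh, Tac1, Calca and Scg2, 1 numbered point per array, red for HDACI and dark blue for vehicle arrays, bars for mean ± SD of n = 4. Vehicle replicate 4 is the highest array for all 4 genes, at 6.31, 9.35, 11.92 and 8.92.

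For the other neuropeptides the genes with the most similar profile over the 8 arrays were found in the same way among 9061 or 9062 genes, as a description of these arrays. Adcyap1 was closest to the actin-related protein gene Actr3b (Pearson r = 0.98), the potassium-dependent sodium-calcium exchanger Slc24a2 (0.98) and the microtubule-associated protein Map1a (0.98). Npy was closest to the stress-inducible zinc finger gene Zfand2a (0.96), the p38 beta kinase gene Mapk11 (0.95) and Leprotl1 (0.95). Gal was closest to Adamtsl4 (0.98), the neutral sphingomyelinase Smpd3 (0.96) and Heatr6 (0.95), and Vip to the translation factor subunit Eif2b3 (0.96), Ciao1 (0.96) and Dolk (0.95). Nts was closest to Nrm (0.96), Snx10 (0.92) and Gabarap (0.89), and Cck to Cspp1 (0.98), Srpra (0.95) and the tight junction protein gene Tjp1 (0.92). None of these genes appeared for more than 1 of the 7 neuropeptides. The highest of this many correlations over 8 arrays is high by selection alone, and shared regulation was not tested. This applies to the genes most like Crh as well.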

How the data were processed

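Gene expression was measured in injured L5 DRG of 8 rats, 4 given HDACI and 4 given vehicle, on Affymetrix Rat Gene arrays. The authors ran RMA normalization in oligo, a Bioconductor package (versions not given in the sources used here), and deposited log2 RMA values for 28826 probe sets. RMA equalises the distribution between arrays, so a shift shared by all transcripts would not be seen. Array medians lay between 8.13 and 8.16. Precision is limited by having 4 arrays per group.

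Groups and replicate numbers came from the sample titles. Gene names came from a platform annotation, in which 15209 probe sets carried 1 symbol, 306 several and 13311 none. Its genome build is not given in the sources used here. Each gene was read from its brightest probe set.

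Differences (HDACI minus vehicle) were tested by lmFit and eBayes of limma 3.58.1 (R 4.3.3), no block or covariate, two-sided, and Benjamini-Hochberg adjustment over all probe sets (threshold 0.05). The script was tested on simulated data. Single genes were also tested with an exact permutation test. All 7 neuropeptides were named. From each list of receptors, processing genes, other peptides and axotomy-induced genes the 3 with the smallest p were named, together with the 3 genes of highest Pearson r with each neuropeptide among genes brighter than the median. Members and lists were chosen with earlier results of these data known. Alternatives covered the block, filters, normalization, variance model, array weights, 2 covariates and left-out arrays.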

Additional observations from a re-analysis of the deposited data

Results flagged for a closer look

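Of 102 groups of 4 arrays examined for the named genes and list means, 8 held an array whose gap to its neighbour, divided by the range of the group, exceeded Dixon's 95% critical value, and chance flags about 1 in 20 such groups. Crh in HDACI replicate 3 was the highest HDACI array at 6.10, next to 5.92 (gap ratio 0.914). Among genes like a neuropeptide, Wfikkn1 had its highest HDACI value in the same array (8.62 against 8.48, ratio 0.906). Vehicle replicate 4 was higher still, at 8.68. Gabarap was lowest in HDACI replicate 2 (12.79 against 12.84, ratio 0.873). Vehicle replicate 4 was highest in Scg2 (8.92 against 7.84, ratio 0.923) and in the mean of the other peptide precursors (0.22 against -0.06 relative to all arrays, ratio 0.899). Among the HDACI arrays, replicate 4 was lowest in the mean of the sensory neuron markers (-0.13 against -0.03, ratio 0.856). Vehicle replicate 1 was lower still in this mean, at -0.15. HDACI replicate 4 was also lowest in skeletal muscle genes (-1.32 against -0.93, ratio 0.865) and highest in satellite glia markers (0.10 against 0.00, ratio 0.865).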

How the results depend on the processing

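No alternative gave a probe set with an adjusted p under 0.05 by limma. Wherever a neuropeptide was tested its adjusted p was 0.701 or more (Nts and Crh were not in the fit without dim probe sets). Npy, Vip and Adcyap1 stayed lower and Cck higher in HDACI under every alternative run. With the muscle covariate Gal went from -0.05 to -0.24, its unadjusted limma p from 0.569 to 0.0294, with no adjusted call. Gal turned to 0.00833 with the sensory neuron mean as a covariate and to 0.0205 without vehicle replicate 3, Nts to 0.00320 with the muscle covariate, and Crh to 0.0159 with the neuron covariate and 0.0292 without vehicle replicate 4. The median difference of the 7 was -0.16 with vehicle replicates 1 and 2 left out together, against -0.08. It was -0.04 with the neuron covariate, where 4 of the 7 were lower, and -0.13 with the muscle covariate, where 5 were. With 1 array left out it lay between -0.12 and -0.05, the difference of Npy between -0.16 and -0.12, of Gal between -0.11 and 0.02, of Vip between -0.43 and -0.19, of Adcyap1 between -0.11 and -0.03, of Nts between -0.19 and -0.04, of Cck between 0.12 and 0.22 and of Crh between -0.12 and 0.03. The count of probe sets with an unadjusted p under 0.05 was 1022. It was 567 among probe sets with 1 symbol, where fewer were tested, 2045 with array weights, 1719 with the neuron covariate, and 708 to 1758 with 1 array left out. The cause of these changes was not tested. Same-numbered arrays correlated at -0.28 to 0.01 in their deviations from the group means, which gave no sign of pairing by replicate number. Such correlations over all probe sets cannot settle whether same-numbered samples were handled together. With the replicate block 803 probe sets had an unadjusted p under 0.05, and no adjusted call changed. The unadjusted limma p went from 0.0241 to 0.0579 for Npy, from 0.0464 to 0.0918 for Cck and from 0.0686 to 0.00100 for Vip.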
